A study of Mus musculus with 4 samples.

Results

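MicroRNA (miRNA) genes make short hairpin transcripts, many of them from within the introns or exons of larger host genes. The data described here are the chromatin contacts of 5-kb bins that overlap a miRNA gene of the GENCODE M21 basic annotation and contain no protein-coding transcription start site (TSS). The annotation placed 2054 miRNA genes on the autosomes, in 1824 bins, and 285 of these bins were left out because they held a protein-coding TSS. The remaining 1539 bins, with 1757 miRNA genes, are called miRNA gene bins below. In the list of 237102 significant interactions, 676 of the 1539 bins took part in 2408 interactions, which is 1.02% of the list. As 6 of these interactions joined 2 miRNA gene bins, there were 2414 ends at miRNA gene bins.

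The interactions came from H3K4me3 HiChIP of bone marrow-derived macrophages (BMDMs) of C57BL/6J mice, grown for 7 days with M-CSF. HiChIP ligates DNA ends that lie close together in the nucleus and enriches them with an antibody, here to H3K4me3, the histone mark found at active promoters. The samples were 2 BMDM cultures treated with IL-4 at 20 ng/mL for 24 hours and 2 basal cultures, labelled as biological replicates. The list used here is the call on the merged reads of the 4 samples, so every value below is 1 value for the pooled BMDMs. Neither a comparison of IL-4-treated with basal cultures nor an error over replicates can be given, and the depth per sample is unknown. Each interaction has an observed count of paired reads, an expected count of the caller's model and their ratio, and all had a false discovery rate below 0.01. The caller tested only bin pairs in which at least 1 bin held an H3K4me3 peak. A miRNA gene bin can therefore be in the list because it carries the mark itself or because it meets a marked partner, and which of these applied is not given.

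A primary miRNA transcript is cut in the nucleus by Drosha to a hairpin and in the cytoplasm by Dicer to a duplex, of which 1 strand guides the silencing of messenger RNAs. Bases 2 to 8 of the mature miRNA, the seed, pair with the target, so miRNAs that share a seed are grouped into families. A miRNA inside a host gene is often made from the host's transcript and promoter, whereas others have promoters of their own that can lie far upstream of the hairpin. In macrophages, miR-155 and miR-146a are known as regulators of inflammatory signalling, and miR-142 as a miRNA of blood cells.

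The mature sequences below belong to the miRNA gene bins that the results turn on. They were taken from RefSeq (GRCm38.p6), whose miRNA table held 764 of the 1757 miRNA genes and 408 of the 726 genes in bins with an interaction. Seeds are in capitals. The first 3 share the let-7 seed and come from bins with 40, 2 and 1 interactions:
let-7i-5p: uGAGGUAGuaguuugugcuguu
let-7g-5p: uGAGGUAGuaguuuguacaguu
let-7d-5p: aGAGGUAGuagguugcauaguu
The next 3 share the miR-15/16 seed. The bin of Mir15b and Mir16-2 had 28 interactions and the bin of Mir15a and Mir16-1 had 4:
miR-15b-5p: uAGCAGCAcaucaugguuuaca
miR-15a-5p: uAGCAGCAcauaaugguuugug
miR-16-5p: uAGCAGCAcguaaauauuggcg
A pair with 1 seed, miR-132 and miR-212, lies in a single bin with 2 interactions:
miR-132-3p: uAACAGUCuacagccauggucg
miR-212-3p: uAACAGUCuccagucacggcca
The mature miR-9-5p is encoded by 3 genes in bins with 8 (Mir9-2), 0 (Mir9-1) and 0 (Mir9-3) interactions, so that bins with the same mature sequence differed in their contacts:
miR-9-5p: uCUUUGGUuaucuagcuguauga
Further miRNAs from the bins with most interactions each have a seed of their own among the sequences shown:
miR-8120: uGUGCCUUgcaacuuccgagcc
miR-6516-3p: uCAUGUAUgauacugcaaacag
miR-22-3p: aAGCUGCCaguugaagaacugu
miR-142a-5p: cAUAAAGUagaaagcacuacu
miR-142a-3p: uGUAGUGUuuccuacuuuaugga
miR-677-5p: uUCAGUGAugauuagcuucuga
Last are 2 miRNAs of inflammatory signalling, each from a bin with 1 interaction:
miR-155-5p: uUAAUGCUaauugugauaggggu
miR-146a-5p: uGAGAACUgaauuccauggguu

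In mm10, counted from 1, let-7i-5p lies at chr10:122985698-122985719 on the minus strand, in a bin that the annotation calls intergenic. The mature miR-22-3p is at chr11:75463772-75463793 on the plus strand, in an exon of its lncRNA host Mir22hg, and also within the protein-coding Tlcd2. The miR-142a-3p sequence is at chr11:87756903-87756925 on the plus strand, in an intron of the lncRNA Mir142hg, and miR-15b-5p is at chr3:69009775-69009796 on the plus strand, in an intron of Smc4. Bins that share a seed differed in their number of contacts. By the RefSeq mature sequences, those whose miRNAs carry the let-7 seed had 0 to 40 interactions (7 bins, 4 with an interaction, median 1). Those with the miR-15/16 seed had 0 to 28 (7 bins, 4 with an interaction, median 1). The let-7 bins leave out that of Mirlet7a-2, with 0 interactions, as only its 3p sequence was held. All 7 bins of Mir344 genes with 1 common seed had 0.

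miRNA gene bins were in the list more often than other bins without a protein-coding TSS. Of the miRNA gene bins, 43.9% had at least 1 interaction (676 of 1539, 95% Wilson interval 41.5 to 46.4%), against 25.4% of 453752 other such bins. The intervals in this report cover counting error only, and neighbouring bins share interactions, so they may understate the uncertainty. The share was higher for miRNA gene bins on 19 of 19 chromosomes, by 18.2 ± 7.11 percentage points (mean ± SD over chromosomes). At least 10 interactions were found for 2.66% of miRNA gene bins (41 of 1539, 1.97 to 3.59%), against 0.999% of the other bins. Among bins in the list, the median was 2 interactions per miRNA gene bin and 2 per other bin.

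The position of the bins relative to protein-coding genes moved with this share. Among bins with a protein-coding exon, 64.2% of miRNA gene bins were in the list (372 of 579, 60.3 to 68.0%), against 47.5% of other bins. In introns the share was 38.7% (113 of 292, 33.3 to 44.4%), against 28.0%, and between genes it was 28.6% (191 of 668, 25.3 to 32.1%), against 17.7%. By distance to the nearest protein-coding TSS, the shares of miRNA gene bins were 70.0% below 10 kb, 51.4% from 10 to 50 kb, 29.4% from 50 to 200 kb and 7.58% beyond, against 49.7%, 38.3%, 21.1% and 5.60% of other bins. Only beyond 200 kb did the intervals overlap, at 4.72 to 12.0% for 16 of 211 miRNA gene bins and 5.47 to 5.72% for other bins. H3K4me3 at the bins was not measured in the list, and its part in these shares was not tested.

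**Figure D1:**
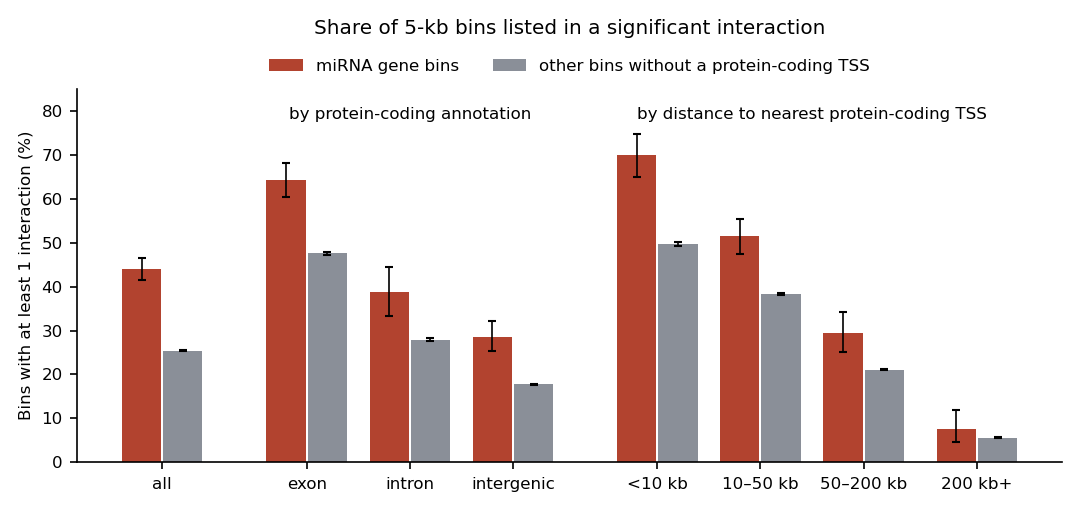
Share of 5-kb bins with at least 1 significant interaction (%), for miRNA gene bins (red) and other bins without a protein-coding TSS (grey), over all bins, by annotation and by distance to the nearest protein-coding TSS, with 95% Wilson intervals. The red bars stand above the grey bars in every class, and the intervals overlap only beyond 200 kb, at 7.58% and 5.60%.

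The share also differed with the kind of miRNA gene and with what lay in or beside the bin. Bins with a miRNA of Mir or Mirlet symbol were in the list in 54.1% of cases (408 of 754, 50.5 to 57.6%), and bins with only other symbols in 34.1% (268 of 785, 30.9 to 37.5%). Bins with a protein-coding host on the same strand had a share of 58.0% (372 of 641), those with only a lncRNA host 36.0% (40 of 111), and those with no same-strand host 33.5% (264 of 787). Where a lncRNA TSS lay in the bin, the share was 46.5% (40 of 86), against 43.8% without one. Bins with a protein-coding TSS within 2500 bp outside their edges had 72.0% (90 of 125), against 41.4% of those without. Bins with 2 or more miRNA genes had 39.5% (34 of 86), against 44.2% of bins with 1 miRNA gene. Other bins were not split in these ways, so whether the differences are particular to miRNA gene bins was not tested. As given above, the share of other bins was also higher with a protein-coding exon and nearer to a protein-coding TSS.

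Pooled over distance, the median count, ratio and distance at miRNA gene bins lay near those at other bins. Over the 2414 ends, the observed count was 6 to 640 with a median of 27, against 24 at other bins. By distance class, the median count was 142 at 10 to 50 kb, against 108, and 57 at 50 to 100 kb, against 44. At 100 to 200, 200 to 500 and 500 to 1000 kb it was 30, 20 and 12, against 28, 18 and 13. The ratio of observed to expected was at most 18.1, with a median of 2.99, against 3.19 at other bins. Distances ran from 10 to 995 kb with a median of 165 kb, against 185 kb. A ratio of at least 10 was reached by 0.787% of ends at miRNA gene bins (19 of 2414), against 0.83% of ends at other bins. Protein-coding promoters were the partner in 41.2% of ends (995 of 2414, 39.3 to 43.2%), against 43.6% at other bins. Within distance classes the promoter share of miRNA gene bins was 48.3% at 10 to 50 kb, against 45.8%. It was 35.9% at 50 to 100 kb, against 40.1%, and 40.7% at 100 to 200 kb, against 41.7%. At 200 to 500 kb it was 41.4%, against 43.7%, and at 500 to 1000 kb 39.8% (34.9 to 44.8%), against 48.2% (47.7 to 48.6%).

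Interactions were unevenly spread over the miRNA gene bins. No interaction was listed for 863 bins, 286 had 1, 210 had 2 to 3, 139 had 4 to 9, 25 had 10 to 19, and 16 had 20 or more. Those 16 bins held 518 of the 2414 ends. By annotation, exonic miRNA gene bins met promoters in 54.3% of their ends, intergenic ones in 31.2% and intronic ones in 25.8%. Bins with a lncRNA TSS had promoter partners in 23.2% of ends. Among the bins in the list, the median was 3 interactions for bins with a lncRNA TSS and 2 for those without one. Promoter shares were not split in this way for other bins, so whether the differences are particular to miRNA gene bins was not tested.

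Of the miRNA gene bins, that of Mir8120 had the most interactions, 59, with 31 partners to the left and 28 to the right. This rank depended on the thresholds. With a false discovery rate under 1e-06 the bin of Mir378a led with 37, against 27 for Mir8120, at ratios of at least 4 Mirlet7i led with 21, against 10, and with 1 interaction kept per cluster of neighbouring bin pairs Gm27532 led with 16, against 5. The Mir8120 bin is intergenic on chromosome 3, from 65655001 to 65660000, and lies 8.73 kb from the nearest protein-coding TSS. Its strongest promoter partner was Tiparp, an ADP-ribosyltransferase induced by the aryl hydrocarbon receptor, at 130 kb with 254 observed reads and a ratio of 5.09. The promoter of Ccnl1, a cyclin of RNA splicing, was met at 300 kb with 82 reads and a ratio of 2.98. A further 21 partners lay in gene bodies without a TSS and 36 between genes, and 6 of all partners were in the body of Tiparp and 8 in that of Lekr1. The neighbouring bins at 10 and 5 kb to the left and at 5 and 10 kb to the right had 2, 3, 15 and 9 interactions.

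The second bin, that of Gm27532 (chromosome 14, 22020001 to 22025000), had 56 interactions, and its pattern was different. It lies in an intron of Lrmda, a gene known from melanocyte differentiation that runs on the opposite strand, and the TSS of Lrmda is within 2500 bp of its edge. Of its partners, 52 were in the body of Lrmda at 20 to 930 kb, with 10 to 135 observed reads and ratios of 2.04 to 7.02. None held a protein-coding TSS, and 52 of the 56 lay to the right.

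The bin of Mir378a and Gm25301, on chromosome 18 in an intron of Ppargc1b, had 42 interactions. Ppargc1b encodes PGC-1β, a coactivator of mitochondrial genes, and is the host of Mir378a. In its own gene body the bin met 16 bins at 10 to 100 kb, the nearest with 549 observed reads and a ratio of 3.89. The highest ratio was 7.02 at 80 kb with 193 reads. None of the 42 partners held a protein-coding TSS. The flanking bins had 3, 1, 15 and 2 interactions, and that with 15, at 5 kb to the right, is a protein-coding promoter bin. A pair with that bin would be closer than 10 kb and could not be listed.

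**Figure D2:**
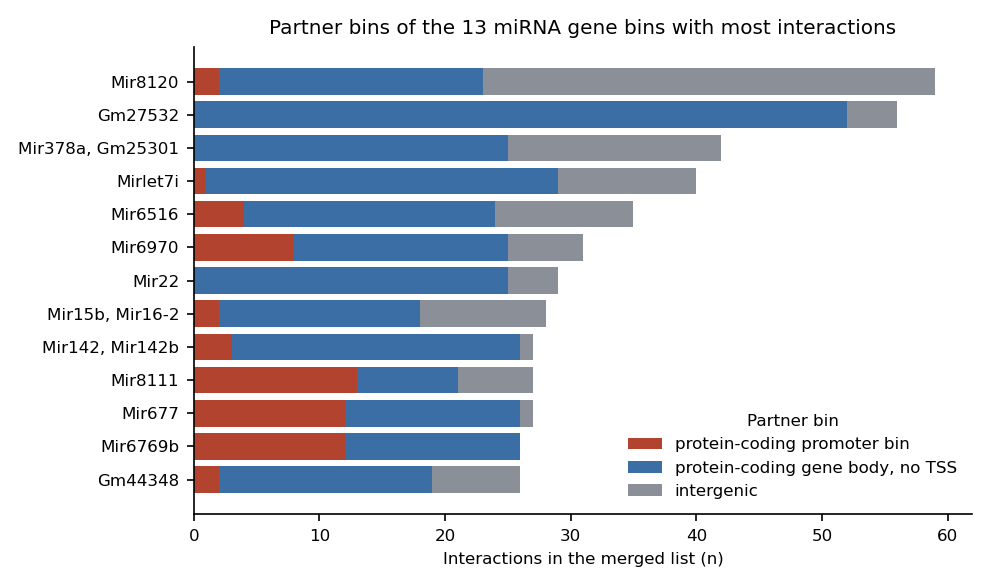
Number of interactions (x axis) of the 13 miRNA gene bins with the most, split by partner bin: protein-coding promoter bin (red), protein-coding gene body without a TSS (blue) and intergenic (grey). Mir8120 leads with 59, Gm27532, Mir378a and Mir22 have no promoter partner, and Mir8111, Mir677 and Mir6769b have 12 or 13 each.

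All 40 interactions of Mirlet7i, the let-7i gene whose sequence opens the set above, lay to its left. The bin holds the TSS of D630033A02Rik, a transcribed pseudogene, and the nearest protein-coding TSS is 88.5 kb away. That TSS belongs to Ppm1h, a metal-dependent protein phosphatase, and lies inside the Ppm1h gene body. This promoter bin was met at 90 kb with 98 observed reads against 18.5 expected, a ratio of 5.31. In the Ppm1h body, 28 partner bins at 55 to 265 kb, the promoter bin among them, had 14 to 104 reads. The strongest were adjacent bins at 190, 185 and 180 kb, with 99, 104 and 92 reads and ratios of 14.7, 13.3 and 9.70. A second run of intergenic partners at 400 to 450 kb reached a ratio of 9.48 at 440 kb, with 41 reads. The farthest partner was an intron of Srgap1, a GTPase-activating protein, at 950 kb with 14 reads and a ratio of 5.78. The neighbouring bins had 2, 3, 3 and 1 interactions.

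Mir6516 is hosted by Snhg20, a small nucleolar RNA host gene, and the Snhg20 TSS lies in its bin. Of its 35 interactions, 33 lay to the right, over Sec14l1 and Sept9. The highest ratio was to an intergenic bin at 100 kb, with 221 reads against 19.6 expected, a ratio of 11.3. Promoter partners of Mir6516 were Sec14l1 at 40 kb with 257 reads and a ratio of 2.31, Sept9, a septin of the cytoskeleton, at 120 kb with 74 reads and a ratio of 4.26 and at 255 kb with 47 reads and a ratio of 2.21, and Tmc6 with Tmc8 at 705 kb with 13 reads and a ratio of 3.18. Its neighbours had 2, 4, 5 and 3 interactions.

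Mir22 had 29 interactions on both sides, 10 to the left and 19 to the right, and 0 of them met a protein-coding promoter. Its bin holds the TSS of Mir22hg. The ratios were narrow, from 2.02 to 4.11. The nearest partner, in Tlcd2 at 10 kb, had 304 reads and a ratio of 2.57. Further partners were 4 bins of Prpf8, the core protein of the spliceosome, at 30 to 45 kb with 160 to 212 reads, 6 bins of Smyd4 at 60 to 110 kb with 49 to 94 reads, and 4 bins of Pitpna, a phosphatidylinositol transfer protein, at 130 to 165 kb. The highest ratio of Mir22, 4.11, was in Pitpna at 165 kb with 63 reads.

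Mir15b and Mir16-2 lie in Smc4, a condensin subunit, and their bin had 28 interactions, 11 to the left and 17 to the right. The most reads, 315, joined it to a bin within Smc4 at 15 kb, with a ratio of 3.77. The Ift80 promoter, of an intraflagellar transport gene, was met at 15 kb on the other side with 184 reads and a ratio of 2.35. The Nmd3 promoter, of a ribosome export adaptor, was met at 715 kb with 18 reads and a ratio of 2.10. An intron of Ppm1l at 515 kb gave the highest ratio, 5.43, from 18 reads. TSSs of both Smc4 and Ift80 also lie within 2500 bp of the edges of the bin, and its neighbours had 1, 3, 4 and 1 interactions.

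For Mir142, with Mir142b on the other strand, 26 of 27 interactions lay to the left. Rnf43, a ubiquitin ligase that restrains Wnt receptors, gave the highest ratio, with 165 reads at its promoter at 95 kb and a ratio of 6.02. Supt4a, a transcription elongation factor, had 486 reads at 20 kb and a ratio of 2.82. Mtmr4, a lipid phosphatase, had 68 reads at 165 kb and a ratio of 2.29. The most reads, 512, joined the bin to an intergenic bin at 10 kb. The body of Hsf5 held 7 partners. The bin holds the Mir142hg TSS and has the Tspoap1 TSS within 2500 bp, and its neighbours had 8, 15, 2 and 5 interactions.

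**Figure D3:**
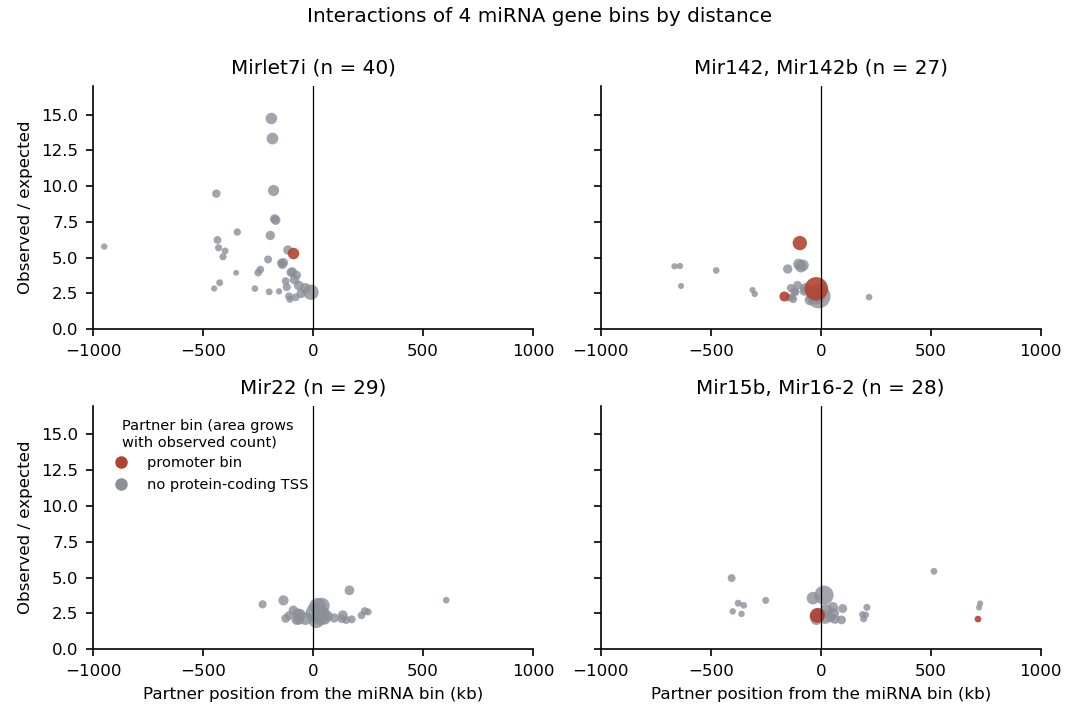
Ratio of observed to expected reads (y axis) of each interaction of 4 miRNA gene bins against the position of the partner bin (x axis, kb, negative to the left), with protein-coding promoter bins in red, other bins in grey and the point area growing with the observed count. Partners of Mirlet7i lie only to the left and reach 14.7 at 190 kb, those of Mir142 lie to the left but for 1, and those of Mir22 stay at 4.11 or below on both sides.

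A further set of bins met many promoters. Mir8111, on chromosome 8 with the TSS of 2210011C24Rik within 2500 bp of its bin, had 27 interactions, 13 of them with promoter bins of 16 genes, the most of any miRNA gene bin. They included Samd1 at 10 kb with 382 reads and a ratio of 2.43, and Prkaca, the catalytic subunit of protein kinase A, at 35 kb with 131 reads and a ratio of 2.32. Farther away it met Mri1 at 250 kb with 42 reads and a ratio of 5.35, and the shared promoter bin of Nacc1 and Trmt1 at 680 kb with 34 reads and a ratio of 9.86. Lyl1, a transcription factor of blood cells, was met at 695 kb with 8 reads, and Calr, a chaperone of the endoplasmic reticulum, at 840 kb with 10.

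Mir677 is in an intron of Atp5b, the beta subunit of ATP synthase, with TSSs of Atp5b and Baz2a within 2500 bp of its bin, and had 27 interactions, 12 with promoters of 12 genes. Ptges3, a co-chaperone of HSP90, had 380 reads at 30 kb and a ratio of 4.20, and Naca, which binds nascent polypeptides, had 259 reads at 50 kb and a ratio of 4.67. Timeless, of the replication fork, had 101 reads at 145 kb and a ratio of 5.33. Stat2, a mediator of interferon signalling, had 87 reads at 185 kb and a ratio of 3.59. Gls2, a glutaminase, had 106 reads at 105 kb and a ratio of 4.06, and Nemp1 had 33 reads at 410 kb and a ratio of 5.91. Ddit3, a transcription factor of the stress response, had 14 reads at 795 kb and a ratio of 3.65.

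Mir6769b is in an intron of Unc13a, a gene of synaptic vesicle release, and 12 of its 26 interactions met promoters of 13 genes. The highest counts at its promoter partners were 226 at Colgalt1 at 20 kb and 126 at the bin of Gtpbp3 and Ano8 at 145 kb, the second with a ratio of 4.53. Bst2, an antiviral membrane protein, had 119 reads at 95 kb and a ratio of 2.74, and Il12rb1, a receptor chain of interleukin-12, had 8 reads at 825 kb and a ratio of 4.02. Mir6970, in Skiv2l, a helicase of RNA decay, met promoter bins of 10 genes in 8 of 31 interactions. These were the bins of Atf6b, Fkbpl, Rnf5, Gpsm3, Slc44a4 and Col11a2, the shared bin of Ppt2 and Prrt1, and that of the heat shock genes Hspa1a and Hspa1l, with 20 to 76 reads. Promoters of 11 genes each were met by the bin of Mir5615-1 and Mir5615-2, with 13 interactions, and by Mir6979, with 9, whose partners were all protocadherin gamma genes.

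Other bins with at least 10 interactions also differed in how often a promoter was the partner. Mir7688, an intergenic bin on chromosome 10, had 18 interactions. It met Lta4h, an enzyme of leukotriene B4 synthesis, at 20 kb with 312 reads and a ratio of 2.13, Elk3, an ETS transcription factor, at 120 kb with 61 reads and a ratio of 2.55, and Cdk17 at 270 kb with 75 reads and a ratio of 6.87. Its highest ratio was 10.2, in the body of Cfap54 at 380 kb with 28 reads. Gm22328, in an intron of the transcription factor gene Foxp1, had 15 interactions, all with bins of Foxp1, including a Foxp1 promoter at 40 kb with 197 reads and a ratio of 3.18 and another at 455 kb with 34 reads and a ratio of 7.30. Gm23968 had 10, among them the promoters of Top1, DNA topoisomerase I, at 25 kb with 100 reads and a ratio of 2.03, and of Zhx3 at 250 kb with 23 reads and a ratio of 2.75. By contrast Mir1192, in an intron of Klf9, had 11 interactions at 120 to 230 kb and none with a promoter, and 8 of its partners were in the body of Trpm3.

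Contacts were counted in the bins beside each miRNA gene bin, as a bin can share the interactions of a nearby promoter. Of the 41 miRNA gene bins with at least 10 interactions, 25 (61.0%) had more than each of the 4 bins within 10 kb, against 61.3% of other bins with at least 10 (2778 of 4531). Over all bins in the list the shares were 17.2% (116 of 676) and 19.2%. A protein-coding promoter bin was among the 4 neighbours for 27 of the 41, a count that was not made for other bins. Mir8111, with 27 interactions, had 29 and 25 at the promoter bins 10 and 5 kb to its left, whereas Mirlet7i, with 40, had at most 3 in any of its 4 neighbours. Mir677, with 27, had 22 at 10 kb to its right. Of the 41 bins, 16 had at least 90% of their partners on 1 side and 7 had all on 1 side, among them Mirlet7i with 40 and Mir760 with 22. The sides were not counted for other bins, so these numbers only describe the 41 bins.

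**Figure D4:**
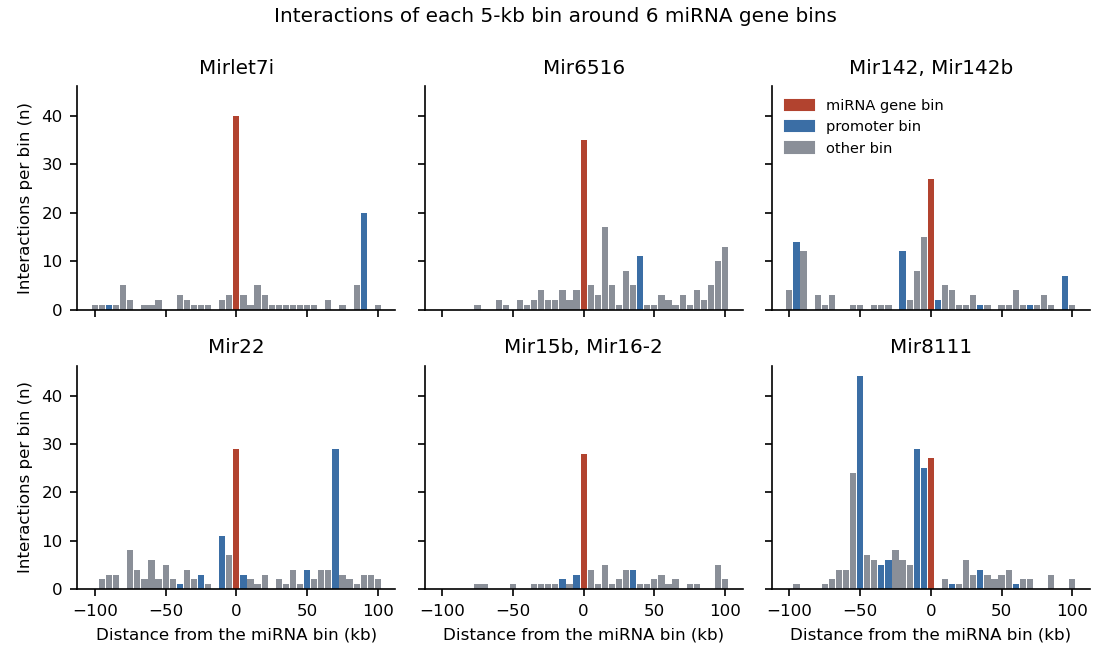
Interactions per 5-kb bin (y axis) within 100 kb (x axis, kb) of 6 miRNA gene bins, with the miRNA gene bin in red, protein-coding promoter bins in blue and other bins in grey. The red bar is the highest within 10 kb for Mirlet7i (40), Mir6516 (35), Mir142 (27), Mir22 (29) and Mir15b with Mir16-2 (28), but not for Mir8111 (27, beside a promoter bin with 29).

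The contacts with host promoters were counted for the miRNAs inside genes. For bins with a protein-coding host on the same strand, 81 of 1254 ends (6.46%, 5.23 to 7.96%) met a bin with a TSS of the host, in 78 bins. The share was 12.8% with a false discovery rate under 1e-06 (78 of 608), 4.17% at ratios of at least 4 and 11.0% with promoters extended by 2500 bp. Regardless of strand, 6.49% of ends of miRNA gene bins in a protein-coding gene body met a TSS of that gene (105 of 1618), against 8.42% at other bins (15500 of 184030). The host contacts with the most reads were those of Mir8094 with Ddx39b, an RNA helicase (553 reads, ratio 3.70), of Mir7038 with Eif3b, a translation initiation factor (546 reads, ratio 3.11), of Gm47278 with Fbrs (516 reads, ratio 4.19) and of Mir324 with Dvl2, a Wnt signal transducer (514 reads, ratio 2.30). They spanned 10 to 15 kb. No pair in the list was closer than 10 kb, so a host TSS in the next bin cannot be seen.

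Median ratios rose with distance at miRNA gene bins and other bins alike. Median expected counts fell, from 57.1 at 10 to 50 kb to 2.81 at 500 to 1000 kb at miRNA gene bins. At other bins they fell from 43.5 to 2.85, and their part in the rise of the ratios was not tested. At 10 to 50 kb the median ratios were 2.412 at miRNA gene bins and 2.403 at other bins, and at 50 to 100 kb 2.664 and 2.634. They were lower at miRNA gene bins at 100 to 200 kb, 2.809 against 2.997, and at 200 to 500 kb, 3.374 against 3.621. At 500 to 1000 kb they were 4.455 and 4.498. Some of the highest single ratios were found over long distances, but others lay nearer, as for Mirlet7i at 190 kb and Mir6516 at 100 kb. Mir700, in an exon of the calcineurin regulator Rcan3, had the highest, 18.1, to an intron of Aunip at 900 kb, from 26 reads against 1.43 expected. Its other 2 interactions met the promoters of Srsf10, a splicing factor, at 440 kb with 17 reads, and of Syf2 at 485 kb with 10. Gm44348 met the Neto2 promoter at 895 kb with 30 reads, a ratio of 16.0, and the Neto2 body in the bin beside it at 890 kb with 40 reads, a ratio of 14.3. A second promoter bin of Neto2, a subunit of kainate receptors, was met at 885 kb with 62 reads, a ratio of 10.4. The highest ratios of Mir700 and Gm44348 thus rest on 26 and 30 reads.

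Mir3970 also had a high ratio over a long distance. Its bin on chromosome 19, from 33155001 to 33160000, is in an intron of Rnls, on the opposite strand, 235 kb from the nearest protein-coding TSS. The promoter of Atad1, a mitochondrial ATPase, was met at 445 kb with 56 reads against 5.19 expected, a ratio of 10.8. An intergenic bin was met at 250 kb with 16 reads.

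The highest read counts were at short range. Gm44313 and Rnf187 at 20 kb had 640 reads with a ratio of 2.09, and Gm24366 and Mvd, an enzyme of the mevalonate pathway, at 30 kb had 636 with a ratio of 4.38. Mir6966 and Fam173a at 10 kb had 603 with a ratio of 2.09, and Gm27943 met the bin of Ankzf1 and Atg9a, an autophagy protein, at 15 kb with 555 and a ratio of 2.07. Mir101a met the lncRNA promoter of E130102H24Rik at 10 kb with 516 and a ratio of 3.32. Of the 10 interactions with the most reads, 4 joined a miRNA gene bin to the promoter of its own host.

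The macrophage list of 22 miRNAs had 17 in miRNA gene bins. These bins gave interactions in 9 of 16 cases (56.3%), with a median of 1 and a highest of 42. Besides Mir378a and Mir22, Mir9-2 had 8 interactions, all to intergenic bins 610 to 970 kb to its right, the strongest at 610 kb with 39 reads and a ratio of 5.42. Mir147 had 3, with the Sqor promoter, of a sulfide-oxidising enzyme, at 125 kb with 21 reads and a ratio of 2.02. Mir132 and Mir212 met an intron of Srr at 250 kb with 45 reads, a ratio of 3.84, and one of Rtn4rl1 at 80 kb with 55 reads, a ratio of 2.01.

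Mir155 had a single interaction, to an intergenic bin 130 kb to its left with 20 reads against 6.40 expected, a ratio of 3.12. Mir146, the miR-146a gene, also had 1, with the promoter of Pwwp2a, a chromatin protein, at 310 kb with 18 reads against 8.27, a ratio of 2.18. Mir511 and Mir33 had 1 each. Mir21a, Mir125b-1, Mir125b-2, Mir342, Mir187, Mir9-1 and Mir9-3 had 0. A count of 0 means that no bin pair passed the caller's thresholds. Mir146b, Mir125a, Mir99b and Mirlet7e lie in bins with a protein-coding TSS and are not members.

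In the hematopoietic list, 32 of 42 miRNAs were in miRNA gene bins, and 10 of their 14 bins had an interaction (71.4%), with a median of 1. The bin of Mir106b, Mir93 and Mir25, in the replication helicase gene Mcm7, had 8 interactions at 280 to 635 kb. They included the promoter bin of Epo and Gnb2 at 635 kb with 21 reads and a ratio of 4.52, and Ppp1r35 at 390 kb with 20 reads and a ratio of 4.03. The neighbours of this bin had 8, 20, 27 and 5 interactions, and 3 of them are promoter bins. The cluster of Mir23a, Mir27a and Mir24-2 had 6 interactions, among them Lyl1 at 495 kb and Calr at 640 kb, with 16 reads each and ratios of 3.02 and 2.77. Neighbours of the cluster's bin had 9, 23, 2 and 4. The erythroid miRNAs Mir144 and Mir451a met Eral1, a chaperone of mitochondrial ribosomal RNA, at 10 kb with 391 reads and a ratio of 3.09, Nek8 and Tlcd1 at 105 kb with 110 reads and a ratio of 4.63, and Phf12 at 90 kb with 78 reads and a ratio of 2.65. Their bin had 4 interactions, and its neighbours had 1, 3, 7 and 17. Mir15a and Mir16-1 had 4 interactions, and the cluster from Mir17 to Mir92-1 had 1, at 10 kb with 158 reads.

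Among 36 widely expressed miRNAs, 32 were in miRNA gene bins, and 17 of 27 bins had an interaction (63.0%), with a median of 1. Besides Mirlet7i, Mir101b had a strong contact with the promoter of Jak2, a kinase of cytokine receptors, at 115 kb with 173 reads and a ratio of 7.28, and one with Ric1 at 385 kb with 30 reads and a ratio of 3.17. The bin of Mir130b and Mir301b had 6 interactions, with Ube2l3, a ubiquitin-conjugating enzyme, at 80 kb with 175 reads and a ratio of 3.60. Mir148a met Skap2, an adaptor protein of immune cells, at 745 kb with 21 reads and a ratio of 5.56. Mir103-1 met the promoter of its own host Pank3, of coenzyme A synthesis, at 15 kb with 147 reads and a ratio of 2.06.

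miRNAs known from other tissues, such as liver, muscle, nerve and epithelium, had 39 of 43 in miRNA gene bins, and 14 of 29 bins had an interaction (48.3%), with a median of 0 and a highest of 6. The 6 belonged to Mir200c and Mir141, miRNAs of epithelia, and all met promoters, at 15 to 320 kb. Ptpn6, the phosphatase SHP-1 of blood cells, was met at 15 kb with 319 reads and at 20 kb with 165, Grcc10 at 25 kb with 311, Tpi1 at 95 kb with 88, Lpcat3 at 55 kb with 103 and Ing4 at 320 kb with 15. The neighbours of the bin of Mir200c and Mir141 had 2, 34, 10 and 6 interactions. Mir499, of heart muscle, met Acss2 at 105 kb with 100 reads and a ratio of 4.98, Ggt7 and Ncoa6. Mir124a-1, Mir124a-2, Mir124a-3, Mir137, Mir208a, Mir205 and Mir1a-1 had 0. The shares of the 4 lists stand beside 54.1% of the bins with a Mir or Mirlet symbol, the kind of symbol all list members carry, and 43.9% of all miRNA gene bins. They rest on 14 to 29 bins each, so they are given as descriptions only.

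**Figure D5:**
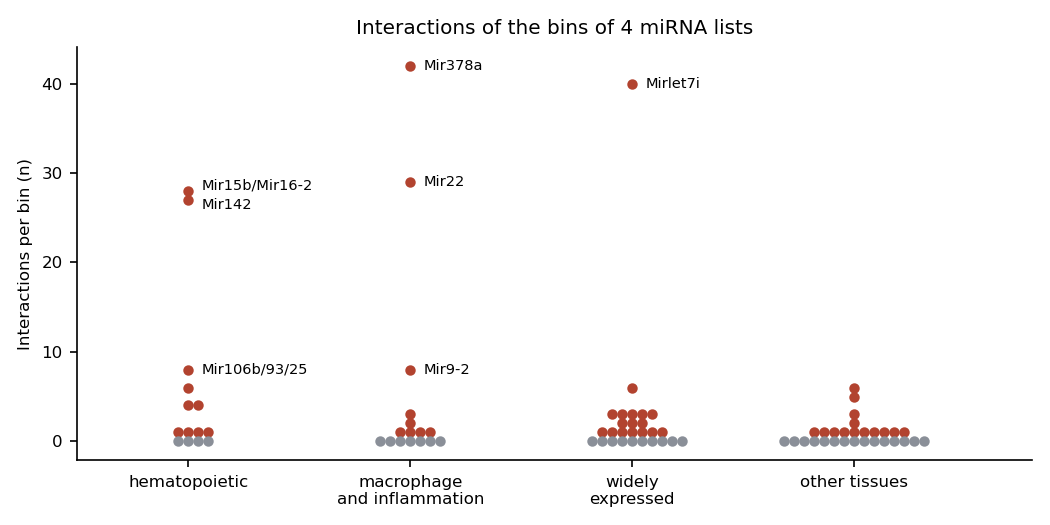
Interactions per bin (y axis) for the bins of 4 miRNA lists (x axis), with 1 point per bin, bins at 0 in grey and bins of at least 8 interactions named. In each list most bins have 3 or fewer, and Mir378a (42), Mirlet7i (40), Mir22 (29), Mir15b with Mir16-2 (28) and Mir142 (27) stand apart.

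Only 6 interactions joined 2 miRNA gene bins. Mir8111 met the cluster of Mir23a, Mir27a and Mir24-2 at 200 kb with 19 reads and a ratio of 3.09. Mir8096 and Gm25472 were joined at 10 kb with 138 reads and a ratio of 2.69, Mir7068 and Gm28019 at 70 kb with 64 and 2.18, and Mir760 and Mir7657 at 250 kb with 20 and 2.92. The pair of Gm27740 and Mir6970 spanned 960 kb with 12 reads and a ratio of 6.39, and that of Gm23018 with Gm47299 and Gm47305 spanned 200 kb with 13 and 2.53.

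The partner promoters belonged to 1011 of 20696 protein-coding genes. Of these, 906 were joined to 1 miRNA gene bin, 90 to 2 and 15 to 3, among them Lyl1, Timeless, Atf6b, Prdx2 and Rnf5. As a check of the labelled cell type, promoters of 8 of 8 macrophage markers had an interaction, with a median of 13.5 (1 to 42), against 63.2% of all protein-coding genes, with a median of 2. An interaction was also found for 3 of 3 endothelial, 3 of 4 neutrophil, 2 of 3 erythroid, 2 of 4 B cell, 1 of 4 T cell and 1 of 3 fibroblast markers, with medians of 1, 1.5, 6, 0.5, 0 and 0, and the endothelial marker Pecam1 had 26. Of the macrophage markers, 2 had a miRNA gene bin as partner. Csf1r, the receptor of M-CSF, was met by Mir6983 at 10 kb with 345 reads and a ratio of 2.12. Adgre1, which encodes F4/80, was met at 140 kb with 86 reads and a ratio of 4.22 by Mir6978, which lies in the complement gene C3. The Mir6978 bin also met Vav1, a signalling protein of blood cells, at 60 kb with 246 reads and a ratio of 4.65, and Gpr108 with Trip10 at 30 kb with 305 and a ratio of 3.22.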

How the data were processed

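H3K4me3 HiChIP libraries of 2 IL-4-treated and 2 basal cultures of C57BL/6J BMDMs were cut with MboI and sequenced as paired ends. Per the submitters' processing notes, Bowtie2 and bedtools were used with the mm10 build, and their versions are not given in the sources used here. The methods of the study say that MAPS, with bins of 5000 bp and H3K4me3 ChIP-seq peaks as anchors, was run per sample, per condition and on the merge of the 4 samples, of which the merged call is used here. Per bin pair, the authors deposited an observed count of paired reads and the number of reads their model expects, used unchanged. The false discovery rate they deposited, an adjusted p-value, was below 0.01 throughout. The authors also deposited a size score per cluster, the number of its bin pairs, used to pick 1 interaction per cluster, and a −log10 p summed per cluster, which was not used. There were 0 columns of single samples, so the planned limma comparison of IL-4-treated with basal BMDMs was not run, and the depth and precision per sample are unknown. The list covers autosomes, and X-linked miRNAs were not analysed here.

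Positions are in mm10 (the bins lie within GRCm38), and genes are from GENCODE M21 basic. Bins overlapping the TSS of any protein-coding transcript were taken as promoter bins. Bins were called exonic, intronic or intergenic by protein-coding genes, hosts are genes overlapping a miRNA on its strand, and distances are between bin starts. The comparison bins had at least 4500 known bases and no protein-coding TSS. Shares carry Wilson intervals at 95%, and no test was made, as the list holds 1 merged sample. A recount of the members of the real list, with the same loading steps but separate counting code, gave the same numbers. Simulated lists with known shares were used to check the counting of listed bins and the intervals.

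The members, the 4 miRNA lists and the cell markers were chosen with earlier results of these data known. By rule, the text names the 10 bins with most interactions, the 10 interactions with the highest ratio and the 10 with the highest count, list members, their hosts and partners, pairs of miRNA gene bins and the 5 bins with most partner promoters. Not all of these are described, and a few partner genes are not reported here. Mir677 tied at the 10th place, and Mir6769b, Mir7688, Mir1192, Mir760, Mir6978, Mir6983, Gm44348, Gm22328, Gm23968 and the host contacts were named after their values were seen. Alternatives were a stricter false discovery rate of 1e-06, a minimum count of 10, a minimum ratio of 4, keeping 1 interaction per cluster, leaving out singletons, promoters extended by 2500 bp, bins with a protein-coding TSS kept, Mir and Mirlet symbols only, RefSeq miRNAs only and no TSS of another non-coding gene. Python 3.11.15 with numpy 2.4.6, pandas 2.3.3 and scipy 1.17.1 was used, and matplotlib 3.10.9 for plots.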

Additional observations from a re-analysis of the deposited data

How the results depend on the processing

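The list itself sets most values, since interactions with a ratio under 2 or closer than 10 kb are not in it, and a bin at 0 may hold contacts below the caller's thresholds. The share of miRNA gene bins with an interaction, 43.9%, became 28.5% at a false discovery rate under 1e-06, 17.9% at ratios of at least 4, 19.6% with 1 interaction per cluster, 40.9% without singletons, 41.4% with promoters extended by 2500 bp, 49.3% with protein-coding TSS bins kept, 54.1% for Mir and Mirlet symbols and 54.5% for RefSeq miRNAs. Other bins had 15.5%, 11.4%, 11.2%, 23.0% and 24.2% under the first 5 of these, below the miRNA gene bins each time. The median per listed bin became 1 under the false discovery rate, ratio and cluster settings. The share of ends with a partner promoter became 48.2%, against 53.5% at other bins, under the stricter false discovery rate, 34.2%, against 36.1%, at ratios of at least 4, 56.4%, against 58.4%, with extended promoters, 26.7% with TSS bins kept and 44.1%, against 43.6%, without bins holding a TSS of another non-coding gene, where it was above the other bins rather than below. The median ratio became 3.26, 4.98 and 3.94, and the median distance 85, 385 and 305 kb, under the false discovery rate, ratio and cluster settings. The share of ends at the host promoter became 12.8% under the stricter false discovery rate, 4.17% at ratios of at least 4 and 11.0% with extended promoters. The cause of these moves was not tested. Counts of interactions per named bin, and their order, also moved. With a false discovery rate under 1e-06 they were 27 for Mir8120, 23 for Gm27532, 37 for Mir378a, 30 for Mirlet7i, 18 for Mir22 and 14 for Mir15b with Mir16-2. At ratios of at least 4 they were 10, 14, 9, 21, 1 and 2, and with 1 interaction per cluster 5, 16, 7, 7, 6 and 7, in the same order of bins. No paired analysis was possible because the list holds 1 merged value per bin pair and no samples.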
